A study of Mus musculus with 8 samples.

Results

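B lineage transcription factors and their coactivator were examined in the stromal vascular fraction (SVF) of gonadal white adipose tissue, as the rows of the count table that carry the names of 10 chosen genes among 54532 genes. Of these 10, Pax5, Pou2af1, Spib, Pou2f2, Bcl11a and Ikzf3 were grouped as B cell factors, Ebf1 as a factor also used by adipocyte precursors, Irf8 and Spi1 as factors also used by myeloid cells, and Tcf3 as a broadly expressed factor. The SVF is what remains of a collagenase-digested fat pad after the adipocytes have floated off, and here red blood cells were also lysed. All mice were male C57BL/6J, obtained at an age of 8 or 16 weeks (the methods do not say which for this model), and received a high-fat diet (60% of calories from fat) for 12 weeks and then normal chow (16% of calories from fat) up to week 18. Groups were set by glucose tolerance tests, and with the change of diet 4 mice (1, 2, 6 and 9) began to receive an isotype control antibody (control Ab) and 4 mice (5, 7, 8 and 10) the BAFF-neutralizing antibody Sandy-2 (anti-BAFF Ab), at 2 mg/kg every 2 weeks for 6 weeks. No genetic change was part of the model, and each library came from 1 mouse.

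BAFF is a cytokine that mature follicular B cells need for survival, and the comparison asks which B lineage factors of the fat pad were lower once it was neutralized. Early in the B lineage, the E protein Tcf3 and Ebf1 switch on the B cell programme, and Pax5 then fixes commitment to it and activates genes such as Cd79a. In mature B cells, Pou2f2 (Oct-2) binds the octamer motif of immunoglobulin promoters and Pou2af1 (OBF-1) joins it there as a coactivator, while Spi1 (PU.1) and Spib are related ETS factors. Several of these proteins also work elsewhere: Spi1 and Irf8 in macrophages and dendritic cells, Pou2f2 in monocytes and macrophages, Spib and Bcl11a in plasmacytoid dendritic cells, Ikzf3 (Aiolos) in T and NK cells, and Ebf1 in adipocyte precursors.

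The start regions of the genes were taken from RefSeq (build GRCm38.p6), which held windows for 8 of the 10 genes; Ikzf3 and Spi1 had no entry. The 250 bases before the start are shown for Pou2af1 and Pax5, whose levels separated the groups, and for Spib, whose levels did not. Capitals mark TGCAAAT, the octamer without its first base (Pou2af1 and Spib), TGACGT, the core of a cAMP response element (Pou2af1), and overlapping matches of CCCNNGGG, the core of an EBF site (Spib).
Pou2af1, chr9:51213440-51213689, plus strand: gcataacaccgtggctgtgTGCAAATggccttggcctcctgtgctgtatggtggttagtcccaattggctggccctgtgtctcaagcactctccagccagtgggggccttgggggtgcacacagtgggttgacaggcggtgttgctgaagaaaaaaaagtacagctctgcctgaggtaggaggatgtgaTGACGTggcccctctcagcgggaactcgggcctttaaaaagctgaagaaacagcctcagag
Pax5, chr4:44710695-44710944, minus strand: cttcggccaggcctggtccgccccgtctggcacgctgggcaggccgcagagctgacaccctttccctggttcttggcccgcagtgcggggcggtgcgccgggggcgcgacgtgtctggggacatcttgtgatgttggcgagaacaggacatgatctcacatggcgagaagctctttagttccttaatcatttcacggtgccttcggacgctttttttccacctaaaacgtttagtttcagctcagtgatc
Spib, chr7:44532072-44532321, minus strand: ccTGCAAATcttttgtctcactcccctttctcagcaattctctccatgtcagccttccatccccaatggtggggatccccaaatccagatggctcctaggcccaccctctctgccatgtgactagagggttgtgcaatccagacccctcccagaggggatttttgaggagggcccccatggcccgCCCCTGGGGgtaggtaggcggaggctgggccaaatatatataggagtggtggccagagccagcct

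Both strands of these windows were searched, 10 windows for the 8 genes. A gene was counted if any of its windows matched, whereas the shares over all are counted per window. The full octamer ATGCAAAT was in the window of 0 of the 8 genes and in 1.60% of all 32851 windows. The shorter TGCAAAT, which every full octamer also contains, was in 2 of the 8 genes and 3.56% of all windows, beginning 231 bases before the start of Pou2af1 and 248 bases before that of Spib. TGACGT was in Pou2af1 alone among the 8 (6.47% of all windows), CCCNNGGG in Spib alone (11.8%), and GAGGAAGT, a PU.1 site, in 0 of the 8 (2.44%). TGCAAAT and TGACGT were searched after these letters had been seen in the windows. Windows were held for 7 of the 12 B cell markers and 4 of the 5 Pax5-activated genes listed for comparison. Among the B cell markers, 1 (Vpreb3) held a full octamer and 1 (Cd22) a CCCNNGGG match. Among the Pax5-activated genes, 1 (Blnk) held a full octamer and 1 (Cd72) the PU.1 site. Blnk and Cd22 are shown for comparison, with the octamer (in the reverse orientation) and the EBF core in capitals. These are letter matches, not tested sites.
Blnk, chr19:40994333-40994362, minus strand: tactggaagggATTTGCATgcccaataagg
Cd22, chr7:30879058-30879087, minus strand: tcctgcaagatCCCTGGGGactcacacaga

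The counts were compared with edgeR's quasi-likelihood test over the 15963 genes that passed its expression filter, and all 10 factors passed. CPM (counts after TMM scaling of each library to the same size) serve for comparisons between mice and FPKM (CPM per kilobase of gene length) for comparisons between genes. Total counts ranged from 13562340 to 18548024 per mouse, and 3 counts in the smallest library were worth 0.219 CPM. Markers of the labelled tissue were present: 10 of 10 myeloid and 11 of 11 adipocyte precursor markers were tested, with summed levels of 8764 to 13174 CPM and 2707 to 3673 CPM per mouse. Genes of the early B cell stages in bone marrow (Rag1, Rag2, Dntt, Vpreb1 and Igll1) were below the filter, with at most 8 counts in a mouse. Epididymis genes varied widely in both groups (12.6 to 1528 CPM in controls, 59.3 to 1767 CPM in anti-BAFF Ab-treated mice, highest in mice 2 and 7), and neutrophil genes reached 88.3 CPM in mouse 5, against 3.66 to 14.9 CPM in the other mice. Fits without mice 2 and 7, and without each single mouse, are given beside the results they moved.

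In the control Ab-treated mice the factors differed widely in level per gene length. Spi1 was highest at 79.8 ± 23.2 FPKM (SD, n = 4), followed by Tcf3 at 15.7 ± 0.837, Irf8 at 12.4 ± 1.68 and Ebf1 at 7.39 ± 1.81 FPKM. Pou2af1 (3.27 ± 0.320 FPKM), Spib (2.26 ± 0.492), Pou2f2 (1.94 ± 0.542) and Ikzf3 (1.72 ± 0.232) came next, then Pax5 at 0.798 ± 0.120 FPKM and Bcl11a at 0.129 ± 0.0431 FPKM. In this order, the neighbours from Pou2af1 to Ikzf3 overlapped in their values per mouse, and the other neighbours did not. The factors not grouped as B cell factors were thus the most abundant, and Ebf1 lay above Pax5 in every mouse.

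Of the 10 factors, 1, Pou2af1, was called lower with anti-BAFF Ab (adjusted p under 0.05), a threshold that 0.0564% of all genes tested passed in that direction. At an unadjusted p of 0.05, 3 factors (Pou2af1, Pax5 and Ikzf3) were lower, against 1.24% of all genes, and 0 were higher. In 2 factors, Pou2af1 and Pax5, no control Ab-treated mouse overlapped an anti-BAFF Ab-treated mouse, which held in this direction for 0.952% of all genes. As the factors were chosen with earlier results of the same mice known, these counts are not independent evidence. The median log2 fold change of the 6 B cell factors was -0.52, that of the 10 factors -0.18, and that of all genes tested 0.004. In bulk tissue, fewer cells of a type and less RNA per cell cannot be told apart.

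**Figure D1:**
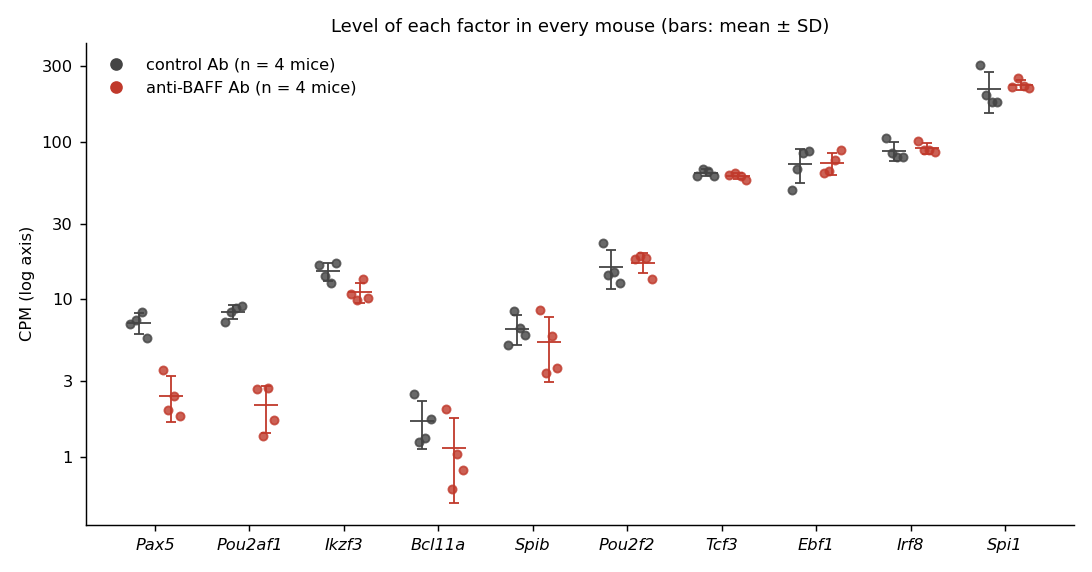
Level of each of the 10 factors in CPM on a log axis, with 1 point per mouse (grey, 4 control Ab-treated mice; red, 4 anti-BAFF Ab-treated mice) and bars for the mean ± SD. The groups are separate for Pax5 and Pou2af1 and overlap for the other 8 factors.

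Pou2af1 (chromosome 9, 51213708 to 51240080, plus strand), the coactivator of octamer-bound Oct factors, showed the largest change. Its levels were 7.20, 8.33, 8.78 and 9.04 CPM in control mice 1, 2, 6 and 9, and 2.69, 1.35, 2.74 and 1.71 CPM in anti-BAFF mice 5, 7, 8 and 10. The lowest control Ab-treated mouse was thus above the highest anti-BAFF Ab-treated mouse, and the control values were close to each other. The mean fell from 8.34 ± 0.816 to 2.12 ± 0.701 CPM (SD, n = 4 each), a log2 fold change of -1.98 (standard error 0.24, edgeR's quasi-likelihood test, adjusted p = 0.0448), or 3.93-fold lower. The call lay close to the threshold: without any single mouse, control or anti-BAFF, the adjusted p was between 0.0765 and 0.186, while the log2 fold change stayed between -2.13 and -1.83.

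Pax5 (chromosome 4, 44524757 to 44710487, minus strand), the factor that keeps cells committed to the B lineage, came next. It was measured at 6.95, 7.33, 8.27 and 5.70 CPM in control mice 1, 2, 6 and 9, and at 3.57, 1.97, 2.41 and 1.82 CPM in anti-BAFF mice 5, 7, 8 and 10. These groups did not overlap either, and mouse 5 was the highest of the anti-BAFF Ab-treated mice. The group means were 7.06 ± 1.06 and 2.44 ± 0.791 CPM (SD, n = 4 each). The log2 fold change was -1.53 (95% interval -2.08 to -0.99, standard error 0.24), or 2.89-fold lower. This difference did not pass adjustment over all genes in edgeR's quasi-likelihood test (unadjusted p = 0.000127, adjusted p = 0.145), and DESeq2's Wald test called it (adjusted p = 3.65e-06). DESeq2 called 2 of the 10 factors lower, Pax5 and Pou2af1, against 0.253% of the genes to which it gave an adjusted p.

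The count table names a transcription factor family for each gene, a column the choice of genes did not use. It lists 1004 of the genes tested as transcription factors, Pou2af1 not among them. Within these 1004, Pax5 had the smallest unadjusted p, and the other B cell factors ranked 4 (Ikzf3), 78 (Bcl11a), 275 (Spib) and 588 (Pou2f2). Tcf3 ranked 190, Spi1 524, Irf8 611 and Ebf1 874, so the ranks of the B cell factors and the other factors were interleaved. These ranks rest on the same fit as the results above, for factors chosen with earlier results known. They are not separate evidence. By edgeR's quasi-likelihood test, 0 of the 1004 passed adjustment, while 8 lower and 8 higher factors had an unadjusted p under 0.05. DESeq2 called 1 of them, Pax5. The transcription factors as a whole had a median log2 fold change of 0.02. Lhx1 and A430033K04Rik were the other factors with a smaller p than Ikzf3, and Lhx1 was at 1.13 ± 0.590 and 0.384 ± 0.152 CPM (SD, n = 4 each).

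The remaining 4 B cell factors did not pass adjustment. Ikzf3 (chromosome 11, 98464902 to 98546031), the IKAROS family member of mature lymphocytes, was at 16.6, 13.9, 12.7 and 16.9 CPM in control mice 1, 2, 6 and 9, and at 10.8, 9.80, 13.4 and 10.1 CPM in anti-BAFF mice 5, 7, 8 and 10. Mouse 8 was above control mouse 6, and the other anti-BAFF Ab-treated mice were below all controls. Ikzf3 thus had a log2 fold change of -0.45 (95% interval -0.77 to -0.13), which did not pass adjustment (unadjusted p = 0.0114, adjusted p = 1.00 by edgeR's quasi-likelihood test). T and NK cells also use Ikzf3, and of their 8 listed markers 6 had a negative log2 fold change (median -0.21), while edgeR gave 0 an unadjusted p under 0.05. These markers summed to 37.9 to 52.7 CPM in the controls and to 34.3 to 48.2 CPM with anti-BAFF Ab. Relative to this sum, a divisor chosen after the values were seen, the log2 level of Ikzf3 differed by -0.29. It was -1.58 ± 0.06 (range -1.67 to -1.54) with control Ab and -1.87 ± 0.27 (range -2.16 to -1.53) with anti-BAFF Ab (SD, n = 4 each). The ranges overlapped, and the part of T and NK cells in the difference of Ikzf3 was not tested.

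Spib (chromosome 7, 44525993 to 44532071), the ETS factor that supports B cell receptor signalling, was at 5.09, 8.39, 6.58 and 5.89 CPM in control mice 1, 2, 6 and 9, and at 8.48, 3.38, 5.87 and 3.64 CPM in anti-BAFF mice 5, 7, 8 and 10. Anti-BAFF mouse 5 held the highest value of all 8 mice, and mice 7 and 10 the lowest. The log2 fold change was -0.28 (95% interval -0.98 to 0.41, unadjusted p = 0.379 in edgeR's quasi-likelihood test), so that falls as large as that of Pax5 lie outside the interval. Bcl11a (chromosome 11, 24078056 to 24174123), a zinc finger factor needed for lymphoid development, rested on 11 to 40 counts per mouse. It was at 2.48, 1.24, 1.32 and 1.73 CPM in control mice 1, 2, 6 and 9, and at 2.02, 0.619, 1.04 and 0.827 CPM in anti-BAFF mice 5, 7, 8 and 10. Here too mouse 5 was the highest of its group, and the interval of the log2 fold change (-0.60) was wide, from -1.50 to 0.30.

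Both genes moved with single mice. Without mouse 5, the log2 fold change was -0.61 for Spib (unadjusted p = 0.0496) and -1.04 for Bcl11a (unadjusted p = 0.0176), and neither passed adjustment in edgeR's quasi-likelihood test. Without control mouse 2, anti-BAFF mouse 7 or anti-BAFF mouse 10, Spib moved the other way, to between -0.14 and -0.13, and without control mouse 1 Bcl11a was at -0.38. Without mice 2 and 7 together, the mice with the most epididymal signal, the log2 fold change of Spib was 0.014. Plasmacytoid dendritic cells express both genes, and the summed level of 5 of their markers was highest in mouse 5 among the anti-BAFF Ab-treated mice (8.82 CPM, against 5.41 to 6.72 CPM in the others) and highest in mouse 2 among the controls (11.6 CPM). Of the 4 such markers tested, 3 had log2 fold changes below 0 and 0 had an unadjusted p under 0.05 in edgeR; Siglech, a receptor of these cells, was at 4.72 ± 1.94 and 3.33 ± 0.232 CPM (SD, n = 4 each). Siglech did not follow the sum in mouse 5. It was at 3.43 CPM there, against 3.43, 3.46 and 2.98 CPM in mice 7, 8 and 10. Ccr9 and Pacsin1, with 30 counts each in mouse 5, were both at 2.02 CPM, above mice 7, 8 and 10. The part of plasmacytoid dendritic cells in the values of Spib and Bcl11a was not tested.

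Pou2f2 (chromosome 7, 25087344 to 25179726), the partner to which Pou2af1 is recruited, was at 22.6, 14.2, 14.8 and 12.6 CPM in control mice 1, 2, 6 and 9, and at 18.0, 18.6, 18.2 and 13.5 CPM in anti-BAFF mice 5, 7, 8 and 10. The groups overlapped and the highest value was that of control mouse 1. The log2 fold change was 0.09 (95% interval -0.35 to 0.53, adjusted p = 1.00 in edgeR's quasi-likelihood test), in contrast to its coactivator. Control mouse 1 was also highest for the summed myeloid markers, at 13174 CPM against 8764 to 11108 CPM in the other 7 mice. Relative to this sum, chosen as a divisor after the values were seen, the log2 level of Pou2f2 was -9.34 ± 0.16 in the controls and -9.25 ± 0.20 in the anti-BAFF Ab-treated mice (SD, n = 4 each).

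**Figure D2:**
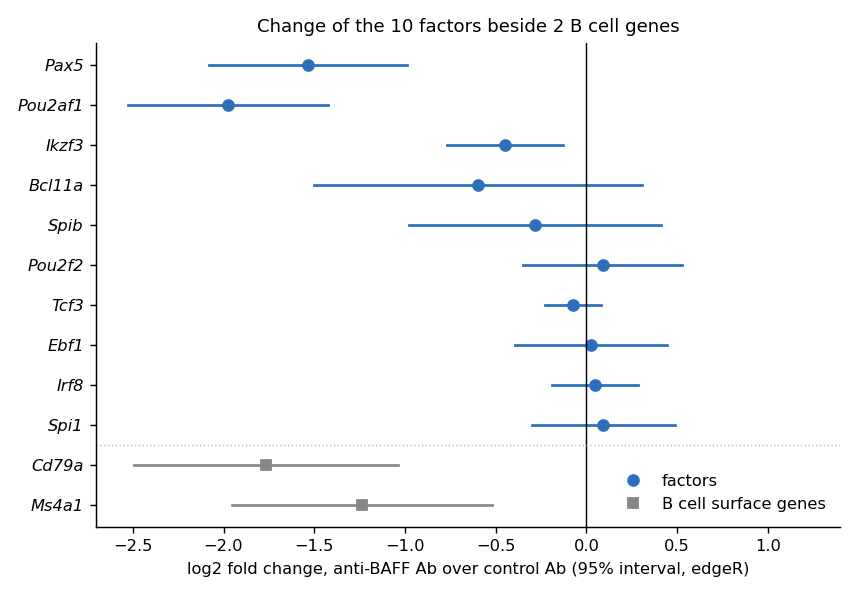
Log2 fold change (anti-BAFF Ab over control Ab) of each of the 10 factors and of the B cell genes Cd79a and Ms4a1, from edgeR, with 95% intervals as horizontal lines. The intervals of Pax5, Pou2af1, Ikzf3 and both B cell genes lie below 0, and those of the other 7 factors include 0.

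The factors shared with myeloid cells did not differ detectably between the groups. Spi1 (chromosome 2, 91082390 to 91115756), the ETS factor required for macrophages, was at 308, 197, 179 and 177 CPM in control mice 1, 2, 6 and 9, and at 221, 253, 225 and 218 CPM in anti-BAFF mice 5, 7, 8 and 10. Control mouse 1 lay above all mice and the other 3 controls lay below all anti-BAFF Ab-treated mice. The log2 fold change was 0.09 (95% interval -0.30 to 0.49, adjusted p = 1.00), and without mouse 1 it was 0.30 (unadjusted p = 0.00340, adjusted p = 0.331, both by edgeR's quasi-likelihood test). Irf8 (chromosome 8, 120736358 to 120756694), needed for type 1 dendritic cells and monocytes, was at 105, 85.1, 80.2 and 79.8 CPM in control mice 1, 2, 6 and 9, and at 100.4, 87.9, 87.8 and 85.4 CPM in anti-BAFF mice 5, 7, 8 and 10. Its log2 fold change was 0.05 (95% interval -0.19 to 0.28), and control mouse 1 was again the highest. The 10 myeloid markers had log2 fold changes from -0.06 to 0.13, and the 4 markers of type 1 dendritic cells from -0.31 to 0.24, with 0 of either list at an unadjusted p under 0.05 in edgeR.

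Ebf1 (chromosome 11, 44617317 to 45008091), which is required for B cells and is also expressed in adipocyte precursors, was at 49.2, 67.2, 84.6 and 87.2 CPM in control mice 1, 2, 6 and 9, and at 62.8, 65.3, 76.4 and 88.5 CPM in anti-BAFF mice 5, 7, 8 and 10. The groups covered nearly the same range, with control mouse 1 the lowest of all. The log2 fold change was 0.02 (95% interval -0.40 to 0.44, adjusted p = 1.00 in edgeR's quasi-likelihood test). Its paralog Ebf2, a marker of adipocyte progenitors, was about as abundant in counts (77.6 ± 32.0 and 81.3 ± 27.6 CPM; SD, n = 4 each), and the 4 EBF genes had log2 fold changes from 0.02 to 0.22. The 11 adipocyte precursor markers, Pdgfra and Dpp4 among them, ranged from -0.10 to 0.23, with 0 at an unadjusted p under 0.05 in edgeR, and control mouse 1 had the lowest sum. Relative to that sum the log2 level of Ebf1 was -5.47 ± 0.25 and -5.47 ± 0.08 (SD, n = 4 each), a divisor chosen after the values were seen.

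Tcf3 (chromosome 10, 80409514 to 80433647), an E protein present in most cells, was the least variable of the 10. It was at 60.8, 67.3, 65.3 and 60.5 CPM in control mice 1, 2, 6 and 9, and at 61.0, 62.8, 60.3 and 56.8 CPM in anti-BAFF mice 5, 7, 8 and 10. The values overlapped, and mouse 10 was the lowest. The log2 fold change was -0.08 (95% interval -0.23 to 0.08), and those of its paralogs Tcf4 and Tcf12 were 0.01 and 0.05.

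**Figure D3:**
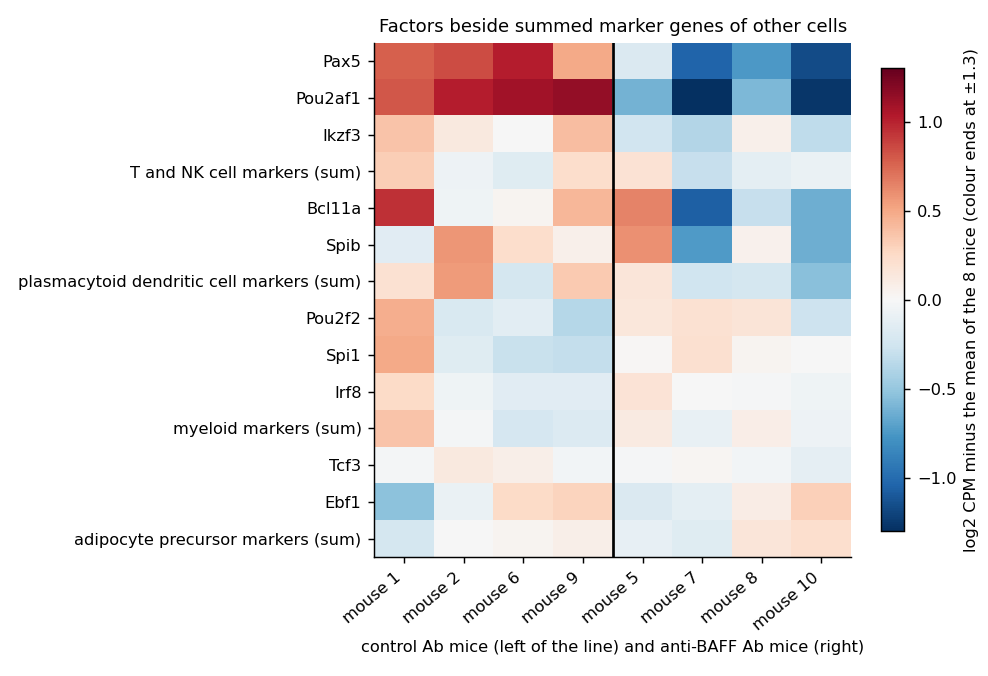
Log2 CPM of each factor and of the summed markers of 4 other cell types, minus the mean of the 8 mice, with 1 column per mouse (control Ab left of the line, anti-BAFF Ab right) and the colour scale ending at 1.3 on either side of 0. Pax5 and Pou2af1 are red in all controls and blue in all anti-BAFF Ab-treated mice, while control mouse 1 is high for Pou2f2, Spi1, Irf8 and the myeloid markers and low for Ebf1.

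A ratio of 2 genes within a library does not depend on how libraries are scaled, so 10 gene pairs were compared as the log2 ratio of their counts in each mouse. Pax5 over Ebf1 was -3.32 ± 0.46 in the controls and -4.93 ± 0.60 after BAFF neutralization (SD, n = 4 each), a difference of -1.60. Pou2af1 over Ebf1 differed by -2.06, Pax5 over Spi1 by -1.69 and Pou2af1 over Irf8 by -2.07. In each of these 4 ratios of Pax5 or Pou2af1 to a shared factor, every anti-BAFF Ab-treated mouse lay below every control. The two-sided exact permutation test gave p = 0.0286, the smallest that 4 against 4 mice allow, and 0.0714 after Benjamini-Hochberg adjustment over the 10 ratios. The adjusted value misses 0.05. These ratios use the same counts of Pou2af1 and Pax5 as the levels above and are not separate evidence. Spib over Spi1, also a ratio of a B cell factor to a shared factor, overlapped between the groups, as given below.

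The paralog ratios separated the groups in no case. Spib over Spi1, the SPI pair, differed by -0.49 (two-sided exact permutation test, p = 0.314), with anti-BAFF mice 5, 8 and 10 within the control range and mouse 7 below it. Pou2f2 over Pou2f1, the lymphoid and myeloid Oct factor over the ubiquitous one, differed by -0.0089 (exact permutation test, p = 1.00), and Ebf1 over Ebf2 by -0.07 (exact permutation test, p = 0.743). Ikzf3 over Ikzf1 differed by -0.45, from -1.82 ± 0.19 to -2.27 ± 0.38 (SD, n = 4 each; exact permutation test, p = 0.114). Ikzf1, the founding IKAROS member of all lymphoid and many myeloid cells, was itself at 53.5 ± 8.91 and 53.7 ± 10.5 CPM (SD, n = 4 each), and of the 5 IKAROS genes only Ikzf3 had an unadjusted p under 0.05 in edgeR. Spic, the third SPI gene, had a log2 fold change of 0.17.

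Cd79a, a signalling chain of the B cell receptor, served as a reference for B cell content. Being a target of Pax5 and Ebf1, Cd79a is not a reference independent of Pax5. Its means were 10.6 ± 1.46 CPM in the controls and 3.12 ± 1.51 CPM after BAFF neutralization (SD, n = 4 each; log2 fold change -1.77, adjusted p = 0.231 in edgeR's quasi-likelihood test), and its groups did not overlap. Relative to Cd79a, Pax5 differed by 0.32 between the groups (log2 ratio -0.58 ± 0.32 and -0.27 ± 0.48; SD, n = 4 each; two-sided exact permutation test, p = 0.286). Pou2af1 relative to Cd79a differed by -0.14 (-0.34 ± 0.17 and -0.48 ± 0.31; SD, n = 4 each; exact permutation test, p = 0.457). The values of both ratios overlapped between the groups, which does not show that the 3 genes changed to the same extent.

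**Figure D4:**
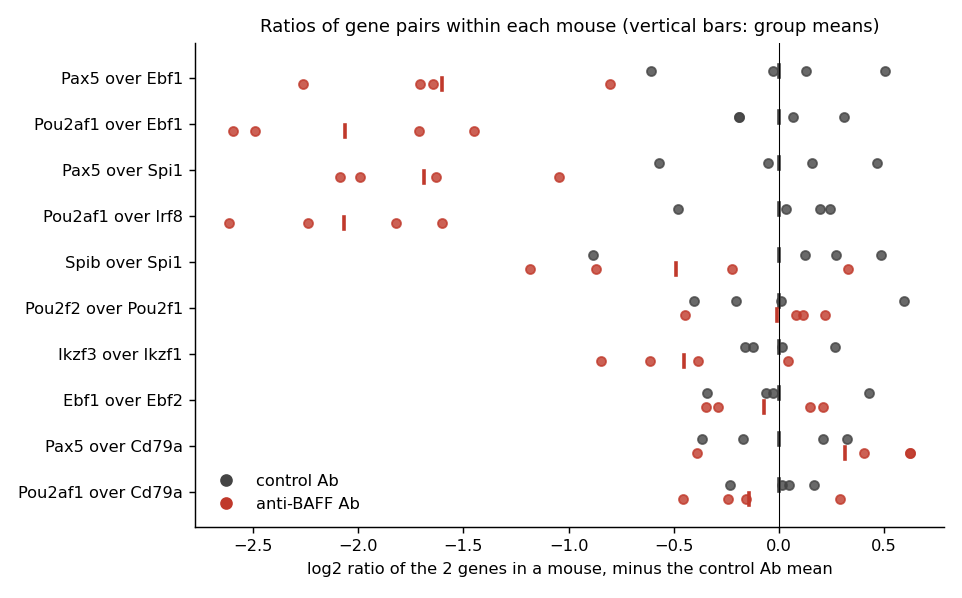
Log2 ratio of the counts of 2 genes in each mouse, minus the mean of the control Ab-treated mice, for the 10 gene pairs (grey, control Ab; red, anti-BAFF Ab; vertical bars, group means). The ratios of Pax5 or Pou2af1 to Ebf1, Spi1 or Irf8 are separate between the groups, and the other 6 overlap.

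The genes around these factors in the B cell programme were read from lists. Of the 12 B cell markers, 11 passed the filter and all 11 had negative log2 fold changes, with a median of -1.24. By edgeR's quasi-likelihood test 10 of the 11 had an unadjusted p under 0.05, against 1.24% of all genes, and 0 passed adjustment. DESeq2 called 7, against 0.253% of the genes to which it gave an adjusted p. The groups did not overlap in 7, against 0.952% of all genes. This list was chosen with earlier results of the same mice known. Fcer2a and Cr2, surface receptors of mature B2 cells, had the largest log2 fold changes at -2.93 and -2.65, from 2.15 ± 0.484 to 0.280 ± 0.297 CPM and from 1.20 ± 0.266 to 0.192 ± 0.189 CPM (SD, n = 4 each). Cd22, an inhibitory B cell receptor, was the exception at 17.5 ± 1.47 and 15.5 ± 3.52 CPM (SD, n = 4 each; log2 fold change -0.18). The untested marker was Vpreb3, with at most 5 counts per mouse.

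Among genes known to be activated by Pax5, Cd79a and Fcer2a had unadjusted p-values under 0.05 in edgeR's quasi-likelihood test and did not overlap between the groups, whereas Blnk and Cd72 overlapped. Blnk, a B cell adaptor that macrophages also express and whose start window carries the octamer shown above, was at 94.7 ± 22.3 and 105 ± 10.1 CPM (SD, n = 4 each; log2 fold change 0.15), and Cd72 had a log2 fold change of 0.06. Pou2af1 is also active in antibody-secreting cells. Of 5 plasma cell markers, 4 had negative log2 fold changes (median -0.60). In edgeR's quasi-likelihood test 2 were lower at an unadjusted p under 0.05, against 1.24% of all genes. Jchain, which joins the units of secreted IgM and IgA, was called (log2 fold change -2.77, adjusted p = 0.0448 in edgeR's quasi-likelihood test). Mzb1, a chaperone of IgM assembly, was at 6.11 ± 1.13 and 1.46 ± 0.821 CPM (SD, n = 4 each, log2 fold change -2.07, adjusted p = 0.188 in edgeR). Xbp1, the secretory factor that many cells express, was at 238 CPM in both groups (log2 fold change 0.00). Tnfrsf17 and Derl3 overlapped between the groups, with log2 fold changes of -0.60 and -0.18.

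A list of 23 other regulators of the B lineage, all of them tested, showed no shift in the bulk tissue. Of these, 11 had log2 fold changes below 0, the median was 0.01 and the range -0.28 to 0.32. By edgeR's quasi-likelihood test 0 had an unadjusted p under 0.05, and DESeq2 called 0. Their summed level averaged 2493 CPM in the controls, against 70.2 CPM for the 12 B cell markers. The share of B cells in these levels was not measured, so they do not show whether the regulators changed within B cells. Prdm1, which drives plasma cell differentiation and is also used by other cells, was at 40.6 ± 4.86 and 48.1 ± 5.43 CPM (SD, n = 4 each; unadjusted p = 0.0515 in edgeR). Id3, an inhibitor of E proteins, and Rel, an NF-kappaB subunit, were at 315 ± 94.7 and 300.1 ± 75.4 CPM in the controls, with log2 fold changes of -0.03 and -0.01, and Klf2 had -0.28. Runx1 was at 94.8 ± 18.0 and 110 ± 19.4 CPM (SD, n = 4 each).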

How the data were processed

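RNA of the SVF of 8 mice was sequenced by a service laboratory (paired-end, NovaSeq). The authors deposited raw counts per gene without normalization, with gene coordinates and, as an other value in bases, a gene length, which was used for FPKM. The submitters' processing notes list build mm10; the aligner and counter are not given in the sources used here, nor whether counting used strand. The 12 genes that overlap 7 of the factors had at most 3 counts in a mouse. All 10 factors overlapped the RefSeq gene of the same symbol.

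Groups followed the treatment in the sample titles. Mouse numbers differ between groups, so mice were not paired. Counts were tested with edgeR 4.0.16 (R 4.3.3): filterByExpr (minimum count 10), TMM, quasi-likelihood test with treatment as the only term, and Benjamini-Hochberg adjustment over 15963 genes; intervals are 95% (prior degrees of freedom 3.14). Replicates were separate libraries (smallest chi-square per degree of freedom 7.32). Ratios used counts + 0.5 and two-sided exact permutation tests (Python 3.11.15). DESeq2 1.42.0 and limma 3.58.1 (on log2(FPKM + 1)) served as alternatives. The fit was tested on simulated data. The authors' fold changes were not used. Factors, pairs and lists were chosen with earlier results of these data known. Names were taken from the factors, their ratio partners and, per list, the 3 tested genes with the smallest p and the 3 with the highest CPM. Some list genes that met this rule are not named. Pdgfra, Dpp4, Derl3 and genes below the filter were named as list members, and Lhx1 and A430033K04Rik for their rank. The 95% intervals come from edgeR's fit and cover the spread between mice as well as counting error. A gene of the B cell and Pax5-activated lists is counted in the list totals and not reported here by name.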

Additional observations from a re-analysis of the deposited data

Results flagged for a closer look

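Each of the following mice lay far from the other 3 mice of its group (Dixon's 95% limit, 0.829 of the group's range for 4 values). Of 58 groups of values tested, 4 were past the limit, where about 2.9 are expected by chance. Spi1 was at 308 CPM in control mouse 1, against 177 to 197 CPM in the other controls. Pou2f2 was at 13.5 CPM in anti-BAFF mouse 10, against 18.0 to 18.6 CPM in the others of its group. Irf8 was at 100.4 CPM in anti-BAFF mouse 5, against 85.4 to 87.9 CPM. The summed neutrophil markers were at 88.3 CPM in anti-BAFF mouse 5, against at most 8.35 CPM in the others of its group. The causes were not tested.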

How the results depend on the processing

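With the quasi-likelihood test, 9 genes were called. The likelihood ratio test called 50, DESeq2's Wald test 70, the fit without a filter 19, the robust dispersion 2, and the fit without mice 2 and 7 called 3; with 1 mouse left out, 2 to 9 were called. The number of factors called lower, 1, became 2 with the likelihood ratio test and with DESeq2 (Pax5 added), and 0 with the robust dispersion (Pou2af1 adjusted p = 0.0518), without mice 2 and 7 (adjusted p = 0.188) and without any 1 mouse (0 in each of 8 fits). RLE, upper quartile and library-size scaling, TMM without immunoglobulin genes, no filter, a stricter filter and limma kept the call of Pou2af1. At an unadjusted p the count of factors, 3, was between 3 and 5 with 1 mouse left out, and was 5 without anti-BAFF mouse 5.

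Signs turned for Ebf1, Pou2f2, Irf8, Spi1 and Spib. Ebf1 was at -0.0038 with upper quartile scaling and from -0.14 to 0.13 with a mouse left out. Without mice 2 and 7, Pou2f2 was at -0.026, Spib at 0.014 and Spi1 at -0.012. With a mouse left out, Pou2f2 ranged from -0.0096 to 0.28 and Irf8 from -0.023 to 0.13. Of 190 values of the factors, 168 kept direction and side of the threshold. Among the ratios, Pou2f2 over Pou2f1 turned to 0.19 without control mouse 1 and 0.14 without anti-BAFF mouse 10, and Ebf1 over Ebf2 to at most 0.073 without control mouse 1, anti-BAFF mouse 8 or anti-BAFF mouse 10; the other 8 kept their direction with counts + 2, without mice 2 and 7 and with any mouse left out. The median of the B cell markers stayed negative with any mouse left out. The depth leaves Bcl11a, Fcer2a and Cr2 at few counts per mouse.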
